A study of Mus musculus with 36 samples.

Results

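The genes described here are 42 mouse genes of DNA replication and the S phase of the cell cycle. They were chosen by name from a fixed list, without use of a measured value, and all 42 were found among the 20325 genes of the files. RNA-seq measured them in 36 libraries, 2 for each of 18 groups, from mouse embryonic fibroblasts (MEFs) from E13.5 embryos that were being reprogrammed toward induced pluripotent stem cells, and from V6.5 mouse embryonic stem cells (ESCs). All MEFs carried 2 alleles of a single transgene for Oct4, Klf4, Sox2 and c-Myc, whose coding parts are joined by 2A and IRES elements, at the Col1a1 locus and 1 allele of the reverse tetracycline transactivator at Rosa26, so doxycycline switched the 4 factors on. SGC0946 is a chemical inhibitor of DOT1L, the enzyme that methylates lysine 79 of histone H3, and its controls received the solvent DMSO.

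The timecourse held MEFs without treatment, cells after 2 days of doxycycline with SGC0946 or DMSO, and cells after 4 days of doxycycline. At day 4 the inhibitor had been present on all 4 days (full window), on days 2 to 4 only (mid window), on days 0 to 2 only (early window) or never (DMSO control). In the sort experiment, cells were separated at day 3.5 of doxycycline into fractions positive or negative for the epithelial cadherin CDH1. Each fraction then received doxycycline with SGC0946 or DMSO until day 5.5. In the virus experiment, MEFs carried a lentivirus with Cdh1 or an empty lentivirus. They were harvested without doxycycline or after 2 days of doxycycline with SGC0946 or DMSO. The ESCs were separated from their feeder cells 24 hours before harvest, and the labels give no transgene for them. Reprogramming cells grew on irradiated feeder MEFs, according to the labels. Feeder RNA was therefore in the libraries to a degree not measured here. In such bulk RNA, fewer cells in S phase and less of a transcript per cell cannot be told apart. Where the labels give no separate cultures or animals, p-values measure only the spread between the 2 libraries of a group, which may be technical.

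DNA replication begins when the origin recognition complex, CDC6 and CDT1 load the MCM helicase onto DNA in G1. Cyclin E with its kinase and the E2F factors then start S phase, CDC45 and the GINS complex activate the helicase, and polymerases copy both strands behind it. Most of the genes involved are known E2F targets that are transcribed at the G1 to S transition, so their RNA is widely used as a sign of dividing cells. Fibroblasts slow down at high density, whereas mouse ESCs divide fast with a short G1.

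Libraries held 32.9 to 50.9 M expected counts in the timecourse, 34.9 to 43.1 M in the sort and 18.5 to 35.9 M among the virus and ESC libraries. The lowest expected count of any of the 42 genes in any library was 45. In the check of the labels, Pou5f1, the Oct4 gene, was at 0.779 to 1.38 counts-per-million (CPM) in MEFs without doxycycline and at 88.1 to 203.6 CPM in all libraries with it. One MEF library with the Cdh1 virus is described as day 2 cells in one label, but its Pou5f1 level of 0.779 CPM was that of the MEFs, and its title names it as MEFs. All 8 fibroblast markers exceeded 1 CPM in every MEF group, and all 8 pluripotency markers did so in ESCs. The summed macrophage markers were 204 to 206 CPM in untreated MEFs of the timecourse and 1210 to 1321 CPM in the MEFs with empty virus.

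Because the genes moved together, the bases before their start sites were read from RefSeq sequences of the build GRCm38.p6. A sequence was present for 34 of the 42 genes. Among these, 7 (20.6%) held at least 1 of the E2F letters TTTCCCGC, TTTCGCGC, TTTGCCGC or TTTGGCGC on either strand within 250 bases upstream, against 583 of 27025 genes (2.16%). The CCAAT letters occurred in 19 of the 34 (55.9%) and in 37.5% of all genes, and the TATAAA letters in 1 of the 34 (2.94%) and in 14.3% of all genes. The GC content of the windows differed too, so these shares are a description. The 3 windows below belong to the helicase genes Mcm5 and Mcm6 and the loader gene Cdc6. RNA changes of Cdc6 are given in every experiment, those of Mcm5 and Mcm6 in part of the comparisons only. Capitals mark the E2F letters on either strand, and a run of capitals longer than 8 holds overlapping matches. They lie at chr8:75109259-75109508 on the plus strand for Mcm5, at chr1:128359706-128359955 on the minus strand for Mcm6 and at chr11:98907901-98908150 on the plus strand for Cdc6.
Mcm5: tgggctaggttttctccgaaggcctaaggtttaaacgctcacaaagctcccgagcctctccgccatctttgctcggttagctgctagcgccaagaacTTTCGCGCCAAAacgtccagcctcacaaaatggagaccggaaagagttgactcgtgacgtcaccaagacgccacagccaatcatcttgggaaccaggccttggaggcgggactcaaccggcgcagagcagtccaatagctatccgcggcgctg
Mcm6: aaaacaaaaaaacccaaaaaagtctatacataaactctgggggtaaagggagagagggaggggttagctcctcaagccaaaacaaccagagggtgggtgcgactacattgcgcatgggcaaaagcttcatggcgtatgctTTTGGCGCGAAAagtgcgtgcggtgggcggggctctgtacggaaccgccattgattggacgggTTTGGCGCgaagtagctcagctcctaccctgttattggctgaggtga
Cdc6: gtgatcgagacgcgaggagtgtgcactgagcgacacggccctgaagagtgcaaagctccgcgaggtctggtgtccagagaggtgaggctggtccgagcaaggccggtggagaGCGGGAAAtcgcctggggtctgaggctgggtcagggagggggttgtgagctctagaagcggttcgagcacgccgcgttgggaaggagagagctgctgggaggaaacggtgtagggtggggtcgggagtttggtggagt
A match of these letters is not evidence that a factor binds there.

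Levels between genes were compared in transcripts-per-million (TPM), which account for gene length. Pcna, the sliding clamp that holds polymerases on DNA, was the most abundant of the 42 in MEFs (291 ± 1.38 TPM, SD, n = 2), day 2 control cells (449.5 ± 12.5 TPM), day 4 control cells (261 ± 1.82 TPM) and ESCs (805 ± 3.60 TPM). In MEFs the ribonucleotide reductase subunits Rrm2 (226 ± 9.01 TPM) and Rrm1 (165 ± 12.4 TPM) followed, then Mcm6 (123 ± 5.87 TPM) and thymidine kinase Tk1 (116 ± 3.85 TPM), whose SD ranges overlap. At the low end of the MEF order stood Cdc6 (10.0 ± 0.453 TPM), the uracil glycosylase gene Ung (8.86 ± 0.672 TPM) and Gins3 (6.96 ± 0.318 TPM), and the SDs of neighbours there did not overlap. Together the 42 genes made up 0.257 ± 0.0061% of all TPM in MEFs, 0.408 ± 0.00040% in day 2 control cells and 0.237% in day 4 control cells, whose libraries were almost equal (SD, n = 2 each). Their share was 0.627 ± 0.015% in ESCs, 0.218 ± 0.00079% in day 2 cells with empty virus and 0.111 ± 0.00037% in MEFs with empty virus. The 2 MEF populations without doxycycline thus differed in level between experiments, which also differed in read layout and spike-in. MEFs of the virus experiment carried an empty lentivirus, those of the timecourse none, and their summed macrophage markers differed as given above. These differences cannot be told apart.

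**Figure D1:**
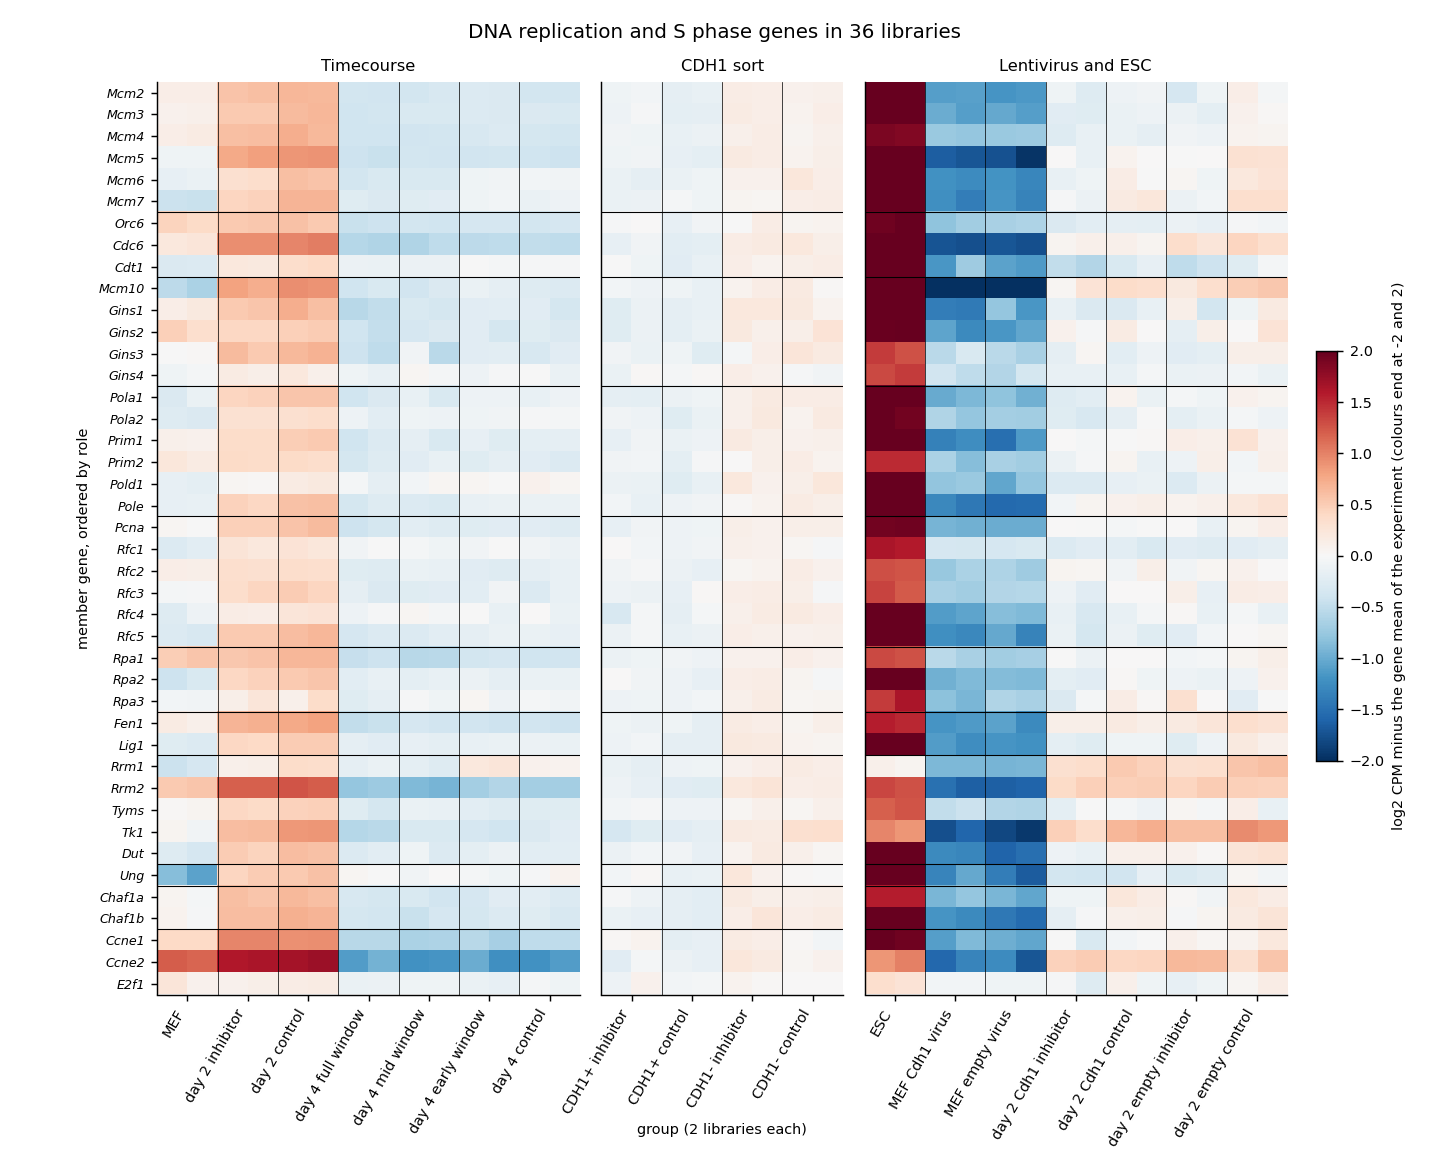
Colour shows log2 CPM of each of the 42 genes (down the page, grouped by role) minus that gene's mean in the experiment, for each of the 36 libraries (across, 2 per group); colours end at -2 and 2. Day 2 columns of the timecourse are above the mean for nearly all genes and day 4 columns below it; in the virus experiment the ESC columns are highest and the MEF columns lowest.

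At day 2 of reprogramming the replication genes were higher than in MEFs almost without exception. By edgeR's quasi-likelihood test with Benjamini-Hochberg adjustment over 14473 genes, at an adjusted p under 0.05, 40 of the 42 rose and none fell. Over all genes 40.4% rose and 34% fell, so most tested genes were called in this comparison. The median log2 fold change of the 42 was 0.60, against 0.057 over all genes. From day 2 to day 4 all 42 fell, where 39.7% of all genes fell, with a median of -0.78 against -0.00032. Against MEFs, day 4 cells had 24 of the 42 lower and 12 higher, where 41% of all genes were lower and 41.2% higher, with a median of -0.25 against 0.0077. On log2(TPM + 1) the median of the 42 was -0.15. The 3 comparisons share libraries. The summed macrophage markers were 204 to 206 CPM in MEFs. They were 27.4 to 29.7 CPM in day 2 cells, then 104 to 108 CPM in day 4 cells. Fibroblast markers ran from 22543 to 22711 CPM in MEFs, then 6422 to 6652 CPM in day 2 cells, and lastly 7313 to 7342 CPM in day 4 cells. The part of either in the replication genes' change was not tested.

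The 6 subunits of the MCM2-7 helicase, which unwinds DNA ahead of the polymerases, all rose by day 2 and all fell by day 4. Mcm2 was at 139.7 and 140.3 CPM in MEFs, 203 and 199 CPM at day 2 and 98.4 and 99.1 CPM at day 4. Its log2 fold change ± SE was 0.52 ± 0.033 for day 2 over MEFs (adjusted p = 1.44e-17) and -1.02 ± 0.034 for day 4 over day 2 (adjusted p = 4.46e-27). Mcm5 stood at 137 and 138 CPM in MEFs, 271 and 273 CPM at day 2 and 111 and 109.7 CPM at day 4. The day 2 libraries were the highest for both genes, and the day 4 libraries lay below those of MEFs. The changes of Mcm5 were 0.99 ± 0.033 (adjusted p = 3.51e-27) to day 2 and -1.30 ± 0.033 (adjusted p = 5.96e-31) from there to day 4. Mcm6 had 191 and 196 CPM in MEFs, 325 and 318 CPM at day 2 and 205 and 204 CPM at day 4. Mcm7 had 149 and 147 CPM in MEFs, 319.8 and 322 CPM at day 2 and 183 and 186 CPM at day 4. These 2 subunits were the exceptions of the complex at day 4, since they remained above MEFs by 0.081 ± 0.032 (adjusted p = 0.0194) and 0.32 ± 0.033 (adjusted p = 1.19e-11), while the other 4 were lower than in MEFs. The call of Mcm6 there ended under DESeq2 (adjusted p = 0.0544) and without the low-count filter (adjusted p = 0.118). Exon bases of 9 of the 42 genes (Mcm7, Orc6, Gins2, Rfc2, Rfc4, Rfc5, Tk1, Chaf1a and Ccne2) overlap opposite-strand genes of the files, by 2758 bases for Gins2 and 2542 for Chaf1a. Counting by strand is not stated in the sources used here, so the values of these 9 are less certain in every comparison. Exons of Fen1 (by up to 1909 bases), Lig1 (247) and Pole (78) overlap opposite-strand genes that are not in the files, and the same limit holds for them.

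Of the genes that mark origins and load the helicase, Cdc6 had 24.5 and 25.1 CPM in MEFs, 41.7 and 42.9 CPM at day 2 and 15.0 and 14.9 CPM at day 4. It rose to day 2 (0.77 ± 0.057, adjusted p = 1.70e-15), fell to day 4 (-1.50 ± 0.060, adjusted p = 2.49e-24) and ended below MEFs (-0.73 ± 0.063, adjusted p = 1.01e-13). Cdt1, its partner in loading, was at 36.8 and 37.6 CPM in MEFs, 57.4 and 59.6 CPM at day 2 and 44.3 and 44.3 CPM at day 4. Its day 4 libraries stayed above those of MEFs (0.25 ± 0.046, adjusted p = 4.96e-06). Orc6, a subunit of the origin recognition complex, had 55.2 and 52.7 CPM in MEFs, 60.8 and 58.4 CPM at day 2 and 31.4 and 32.3 CPM at day 4. It gained little to day 2 (0.14 ± 0.045, adjusted p = 0.00441) and was among the 5 that fell most against MEFs at day 4 (-0.76 ± 0.047, adjusted p = 3.99e-18).

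Among the genes that activate the helicase, Mcm10, a factor needed for unwinding to start, gained most. It had 32.3 and 30.0 CPM in MEFs, 88.7 and 86.3 CPM at day 2 and 38.8 and 38.5 CPM at day 4, changes of 1.49 ± 0.048 (adjusted p = 1.54e-27) and then -1.18 ± 0.046 (adjusted p = 1.52e-24). The 4 GINS genes encode a complex that joins MCM2-7 in the active helicase. Of these, Gins1, Gins3 and Gins4 rose to day 2 by 0.51, 0.66 and 0.23, and Gins2, at 0.076, did not pass the test (adjusted p = 0.197). All 4 fell from day 2 to day 4, with changes between -0.95 for Gins1 and -0.23 for Gins4.

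The 6 polymerase and primase genes all rose to day 2, by 0.17 (Prim2) to 0.77 (Pola1). Pold1, the catalytic subunit of polymerase delta, was at 61.3 and 59.9 CPM in MEFs, 77.0 and 78.8 CPM at day 2 and 72.9 and 70.7 CPM at day 4. It fell least of the 42 from day 2 to day 4 (-0.12 ± 0.043, adjusted p = 0.0145) and was higher than in MEFs at day 4 (0.25 ± 0.045, adjusted p = 4.88e-06). Pola2, the second subunit of polymerase alpha, had 40.2 and 39.3 CPM in MEFs, 60.4 and 61.8 CPM at day 2 and 47.2 and 46.9 CPM at day 4, and it too was above MEFs at day 4 (0.24 ± 0.046, adjusted p = 9.80e-06). The primase genes Prim1 and Prim2, whose products make the RNA primers, were lower than in MEFs at day 4 (-0.28 for Prim1 and -0.45 for Prim2).

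Pcna followed the common course, with 196 and 189 CPM in MEFs, 283 and 295 CPM at day 2 and 163 and 160.3 CPM at day 4. It rose by 0.59 ± 0.033 (adjusted p = 2.82e-19), and its day 4 libraries lay below those of MEFs (-0.25 ± 0.034, adjusted p = 1.03e-08). The RFC complex loads this clamp. Its subunit Rfc5 had 35.2 and 34.1 CPM in MEFs, 65.7 and 67.8 CPM at day 2 and 38.9 and 38.2 CPM at day 4, the fifth largest rise to day 2 (0.94 ± 0.047, adjusted p = 2.95e-21). Rfc1, the large subunit, had 97.1 and 102 CPM in MEFs, 141 and 137 CPM at day 2 and 111 and 109 CPM at day 4. Both stayed above MEFs at day 4, Rfc5 by 0.15 ± 0.049 (adjusted p = 0.00435) and Rfc1 by 0.15 ± 0.038 (adjusted p = 0.000572), while Rfc2, Rfc3 and Pcna were below.

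The RPA genes encode the protein that coats single-stranded DNA, and its subunits diverged. Rpa1 had 171 and 179 CPM in MEFs, 194 and 193 CPM at day 2 and 92.8 and 93.8 CPM at day 4. Rpa2 had 30.8 and 33.1 CPM in MEFs, 58.4 and 60.1 CPM at day 2 and 37.3 and 37.3 CPM at day 4. At day 4 against MEFs Rpa1 was lower (-0.91 ± 0.035, adjusted p = 3.44e-25) and Rpa2 higher (0.22 ± 0.051, adjusted p = 0.000125), with groups that did not overlap. Rpa3 did not pass the test there, at 0.0094. Of the genes that join Okazaki fragments, Lig1, the replicative DNA ligase, had 84.6 and 83.3 CPM in MEFs, 142 and 142 CPM at day 2 and 92.0 and 91.5 CPM at day 4, still above MEFs (0.13 ± 0.036, adjusted p = 0.00162). Fen1, which trims the flaps, was instead lower than in MEFs (-0.53 ± 0.047, adjusted p = 1.71e-13).

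The genes that supply nucleotides split. Rrm2, the small subunit of ribonucleotide reductase and the one that limits the enzyme in S phase, had 263 and 267 CPM in MEFs, 437 and 419 CPM at day 2 and 113 and 113 CPM at day 4. It fell from day 2 to day 4 (-1.92 ± 0.035, adjusted p = 4.70e-36) and was below MEFs there (-1.23 ± 0.035, adjusted p = 6.55e-30). Rrm1, the large subunit, had 346 and 370.4 CPM in MEFs, 604 and 593 CPM at day 2 and 497 and 489 CPM at day 4. It lost little from day 2 (-0.28 ± 0.033, adjusted p = 5.23e-10) and stayed above MEFs (0.46 ± 0.033, adjusted p = 5.02e-16), so the 2 subunits of 1 enzyme stood on opposite sides of the MEF level at day 4. Tyms, the thymidylate synthase gene, had 69.8 and 71.3 CPM in MEFs, 94.1 and 95.3 CPM at day 2 and 58.0 and 58.0 CPM at day 4, highest at day 2 and lowest at day 4 (-0.71 ± 0.041, adjusted p = 4.28e-19). Tk1, the thymidine kinase gene, and Dut, whose product keeps uracil out of DNA, rose to day 2 by 0.88 and 0.89 and fell afterwards, with changes of -1.13 and -0.80. Ung, whose product removes uracil from DNA, was the largest rise of the 42 at day 2, with 9.76 and 8.42 CPM in MEFs, 25.4 and 26.4 CPM at day 2 and 17.2 and 18.5 CPM at day 4. The change to day 2 was 1.51 ± 0.077 (adjusted p = 7.70e-21), and at day 4 Ung was still above MEFs by 0.97 ± 0.079 (adjusted p = 1.53e-14). The chromatin assembly genes Chaf1a and Chaf1b, whose products place histones on new DNA, rose by 0.62 and 0.67 and then fell, with changes of -0.86 and -0.97.

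Among the genes of S phase entry, the cyclin E pair fell steeply after day 2. Ccne2 had 27.4 and 26.6 CPM in MEFs, 37.5 and 38.8 CPM at day 2 and 5.11 and 5.48 CPM at day 4. It changed by 0.50 ± 0.066 (adjusted p = 8.83e-09) to day 2 and by -2.85 ± 0.079 (adjusted p = 1.43e-29) from day 2 to day 4, the largest fall of the 42. Ccne1 had 67.4 and 67.2 CPM in MEFs, 96.0 and 97.9 CPM at day 2 and 36.1 and 35.8 CPM at day 4, with changes of 0.53 ± 0.040 (adjusted p = 4.66e-15) and -1.43 ± 0.043 (adjusted p = 1.29e-28). E2f1, which encodes a transcription factor of the G1 to S transition, departed from the rest. It had 49.0 and 43.9 CPM in MEFs, 45.9 and 46.1 CPM at day 2 and 40.1 and 38.7 CPM at day 4. Its day 2 libraries lay within the range of MEFs (-0.015 ± 0.049, adjusted p = 0.797), and it fell to day 4 (-0.22 ± 0.049, adjusted p = 0.000102).

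**Figure D2:**
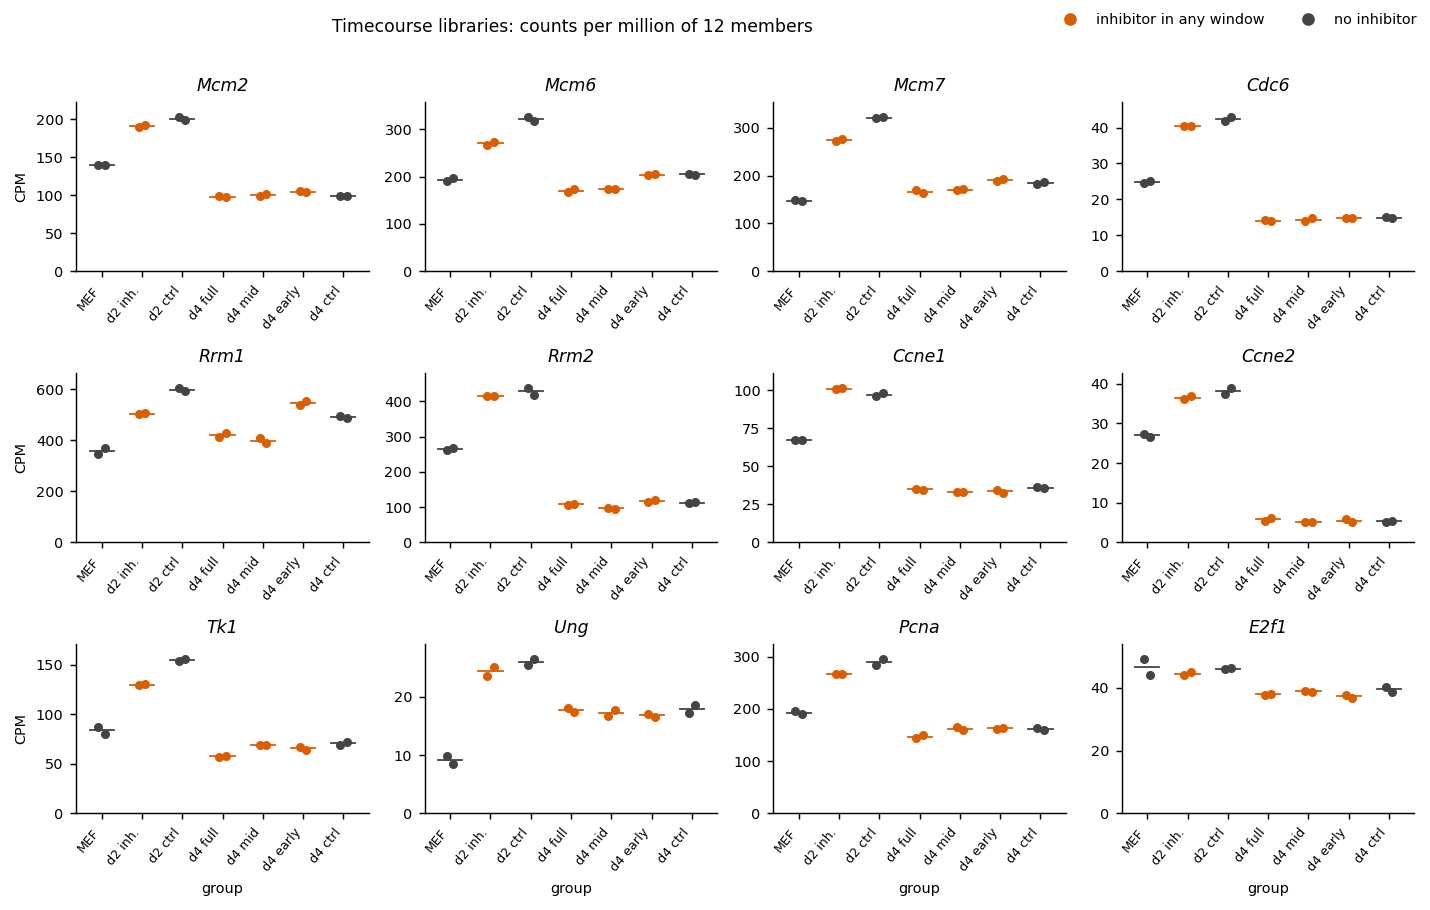
Points are CPM in single libraries of the timecourse for 12 of the 42 genes, with the mean of the 2 libraries as a line; groups run from MEFs through day 2 to day 4, with inhibitor groups in orange left of their DMSO controls in grey, and each vertical axis starts at 0. Rrm2, Ccne1 and Ccne2 are far below their MEF level at day 4, Ung and Rrm1 stay above it, and E2f1 shows no rise at day 2.

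Other genes of the cell cycle gave the following counts. Of 42 further replication genes, 39 rose and 1 fell by day 2, with 1.21 ± 0.050 for the fork protection gene Timeless (adjusted p = 4.77e-24), and 37 fell from day 2 to day 4. Of 28 genes of G2 and mitosis, 26 rose by day 2, 27 fell from there to day 4, and at day 4 21 were below MEFs and 4 above. Prc1, a gene of the mitotic spindle midzone, was below MEFs at day 4 (-1.22 ± 0.035, adjusted p = 8.13e-30). Of 15 tested DNA damage checkpoint genes, 14 rose by day 2, Brca1 by 1.77 ± 0.048 (adjusted p = 2.72e-30), and 12 fell from day 2 to day 4. Against MEFs, 9 checkpoint genes were still higher at day 4 and 3 were lower. Of 27 genes of G1 to S control, 18 rose and 6 fell by day 2. The inhibitor gene Cdkn1c, whose product holds cells in G1, was among those that fell to day 2, with a change of -3.76 ± 0.065 (adjusted p = 3.73e-37), and it rose from day 2 to day 4 by 4.37 ± 0.062 (adjusted p = 1.15e-39).

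After 2 days with the DOT1L inhibitor, 14 of the 42 genes were lower than in the DMSO control and none was higher. Of all genes 9.11% were lower and 8.73% higher. The 14 changes lay between -0.25 and -0.10, and the median over the 42 was -0.088, against -0.0046 over all genes, and -0.049 on log2(TPM + 1). The count was 5 with limma on log2(TPM + 1) and 6 to 9 when any 1 of the 4 libraries was left out. Mcm6 had 267 and 273 CPM with inhibitor, against 325 and 318 CPM with DMSO (-0.25 ± 0.031, adjusted p = 8.66e-08). Mcm7 had 271 and 276 CPM with inhibitor, against 319.8 and 322 CPM with DMSO (-0.23 ± 0.031, adjusted p = 5.07e-07). Both inhibitor libraries lay below both DMSO libraries for each gene, as they did for 35 of the 42 and for 31.1% of all genes. The same held for Rrm1, with 502 and 506 CPM against 604 and 593 CPM (-0.25 ± 0.033, adjusted p = 2.85e-07), for Tk1, with 129 and 131 CPM against 153 and 155 CPM (-0.25 ± 0.037, adjusted p = 3.56e-06), and for Cdt1, with 52.4 and 51.6 CPM against 57.4 and 59.6 CPM (-0.17 ± 0.043, adjusted p = 0.00344).

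Other genes of S phase did not move as far at day 2. Mcm2 had 189.6 and 193 CPM with inhibitor, against 203 and 199 CPM with DMSO (-0.071 ± 0.032, adjusted p = 0.132). Cdc6 had 40.5 and 40.3 CPM, against 41.7 and 42.9 CPM (-0.066 ± 0.054, adjusted p = 0.453). Pcna, the clamp, had 266 and 267 CPM with inhibitor, against 283 and 295 CPM with DMSO (-0.12 ± 0.032, adjusted p = 0.00808). Neither Rrm2, with 415 and 415 CPM against 437 and 419 CPM (-0.044 ± 0.032, adjusted p = 0.397), nor Tyms, with 91.2 and 89.3 CPM against 94.1 and 95.3 CPM (-0.069 ± 0.039, adjusted p = 0.241), passed the test. The same was true of Ccne1, with 101 and 101 CPM against 96.0 and 97.9 CPM (0.060 ± 0.039, adjusted p = 0.324), and of E2f1, with 43.9 and 45.0 CPM against 45.9 and 46.1 CPM (-0.050 ± 0.048, adjusted p = 0.543). Of the 28 G2 and mitosis genes, 6 were lower with inhibitor and none was higher. The epithelial markers summed to 17.2 to 17.3 CPM with inhibitor and 6.90 to 7.19 CPM with DMSO, and their part in the difference was not tested.

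At day 4 the inhibitor was compared with the DMSO control for each window. With the full window 12 of the 42 were lower than in the DMSO control and none higher, where 15.8% of all genes were lower and 19% higher. The mid window gave 6 lower and none higher, where 27.4% of all genes were called, 14% were higher and 1948 of 14473 were lower, so the 6 are a share close to that of all genes. With the early window, in which the inhibitor was withdrawn at day 2, none was lower and 1 was higher, where 2.45% were lower and 3.19% higher. The medians of the 42 were -0.084, -0.044 and 0.0054, against -0.0046, 0.012 and 0.0045 over all genes, and the mid and early medians were -0.069 and -0.017 on log2(TPM + 1). These 3 comparisons share the DMSO libraries. The direct comparison of full with early gave 15 lower and none higher, where 14.4% of all genes were lower and 16.6% higher. Full against mid gave 3 lower and 2 higher, where 8.51% were lower and 11.6% higher. These 5 are a share below the 20.1% of all genes called there. On the TPM scale the counts of called genes were 8 for full against early and 11 for the mid window. For the full window they ranged over 7 to 12 with 1 library left out, the 7 without DMSO replicate 1.

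Rrm1 differed most between the full and early windows. It had 414 and 428 CPM in the full window, 408 and 389 CPM in the mid window, 538 and 553 CPM in the early window and 497 and 489 CPM in the DMSO control. It was thus lower in the full (-0.23 ± 0.033, adjusted p = 4.38e-07) and mid windows (-0.31 ± 0.033, adjusted p = 1.84e-09). In the early window it was the 1 gene called higher (0.15 ± 0.033, adjusted p = 0.00292), a call that ended on the TPM scale (adjusted p = 0.199) and without DMSO replicate 2 or early replicate 2. Full against early gave -0.37 ± 0.033 (adjusted p = 5.71e-12). Rrm2, its partner, had 106 and 110.0 CPM in the full window, 98.7 and 95.3 CPM in the mid window, 114 and 122 CPM in the early window and 113 and 113 CPM in the control. It was lower in the mid window (-0.22 ± 0.037, adjusted p = 7.19e-06) and higher in the full than in the mid window (0.16 ± 0.037, adjusted p = 0.00154). Tk1, which salvages thymidine, had 56.8 and 58.0 CPM in the full window, 68.5 and 68.6 CPM in the mid window, 66.8 and 64.1 CPM in the early window and 69.1 and 72.0 CPM in the control. It was lowest in the full window, against the control (-0.30 ± 0.042, adjusted p = 2.33e-07) and against the mid window (-0.26 ± 0.043, adjusted p = 1.76e-05).

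The helicase subunits did not all move. Mcm6 had 166 and 173 CPM in the full window, 174 and 173 CPM in the mid window, 202 and 204 CPM in the early window and 205 and 204 CPM in the control. Mcm7 had 169 and 163 CPM in the full window, 169 and 172 CPM in the mid window, 188 and 193 CPM in the early window and 183 and 186 CPM in the control. For Mcm6 the full and mid libraries all lay below the early and control libraries, with -0.27 ± 0.032 in the full window (adjusted p = 5.13e-09) and -0.24 ± 0.032 in the mid window (adjusted p = 2.27e-07). Mcm7 was lower in the full (-0.15 ± 0.032, adjusted p = 0.000234) and mid windows (-0.11 ± 0.033, adjusted p = 0.00666) as well. Mcm2, in contrast, had 98.5 and 97.5 CPM in the full window, 98.6 and 102 CPM in the mid window, 106 and 104 CPM in the early window and 98.4 and 99.1 CPM in the control. For Mcm2 no window passed the test against the control, with -0.012 in the full window, but the full window was below the early window (-0.099 ± 0.035, adjusted p = 0.0272). The same comparison gave -0.26 ± 0.032 for Mcm6 (adjusted p = 1.79e-08) and -0.20 ± 0.032 for Mcm7 (adjusted p = 5.04e-06). Gins1, of the GINS complex, had 6.16 and 6.45 CPM in the full window, 7.32 and 7.06 CPM in the mid window, 7.73 and 7.79 CPM in the early window and 7.77 and 7.11 CPM in the control. It was lower in the full window than in the control (-0.24 ± 0.093, adjusted p = 0.0440) and than in the early window (-0.30 ± 0.093, adjusted p = 0.0120).

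Polymerase and coating genes moved in part. Pola1, the catalytic subunit of polymerase alpha, had 44.0 and 47.8 CPM in the full window, 52.4 and 47.1 CPM in the mid window, 54.5 and 54.5 CPM in the early window and 52.7 and 54.2 CPM in the control (-0.22 ± 0.050, adjusted p = 0.000649 for full over control, and -0.25 ± 0.050, adjusted p = 0.000164 for full over early). Pole, of polymerase epsilon, had 49.9 and 53.2 CPM in the full window, 52.7 and 51.6 CPM in the mid window, 57.5 and 58.3 CPM in the early window and 58.2 and 58.5 CPM in the control. It was lower in the mid window (-0.16 ± 0.043, adjusted p = 0.00335). Rpa1 had 88.5 and 91.6 CPM in the full window, 83.5 and 83.9 CPM in the mid window, 95.04 and 96.6 CPM in the early window and 92.8 and 93.8 CPM in the control, lowest in the mid window (-0.16 ± 0.037, adjusted p = 0.00112) and higher in the full than in the mid window (0.11 ± 0.037, adjusted p = 0.0375). Pcna had 144 and 149.8 CPM in the full window, 165 and 159 CPM in the mid window, 162 and 163 CPM in the early window and 163 and 160.3 CPM in the control. Only its full window libraries lay below all others (-0.14 ± 0.034, adjusted p = 0.00106 over the control). Tyms had 57.8 and 53.5 CPM in the full window, 62.3 and 61.9 CPM in the mid window, 58.8 and 57.0 CPM in the early window and 58.0 and 58.0 CPM in the control, and it was lower in the full than in the mid window (-0.16 ± 0.043, adjusted p = 0.00590).

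Of the genes that start S phase, Cdc6, Cdt1, Ccne1, Ccne2 and E2f1 did not pass the test in any window against the control. Cdc6 had 14.3 and 13.9 CPM in the full window, 13.9 and 14.9 CPM in the mid window, 14.7 and 14.9 CPM in the early window and 15.0 and 14.9 CPM in the control (-0.087 ± 0.066, adjusted p = 0.333 for full over control). Cdt1 had 41.7 and 41.0 CPM in the full window, 41.7 and 41.6 CPM in the mid window, 44.7 and 44.1 CPM in the early window and 44.3 and 44.3 CPM in the control (-0.10 ± 0.045, adjusted p = 0.0784). Ccne1 had 35.0 and 34.7 CPM in the full window, 32.9 and 33.4 CPM in the mid window, 34.7 and 32.4 CPM in the early window and 36.1 and 35.8 CPM in the control (-0.046 ± 0.046, adjusted p = 0.487). E2f1 had 37.6 and 38.1 CPM in the full window, 38.8 and 38.8 CPM in the mid window, 37.7 and 36.8 CPM in the early window and 40.1 and 38.7 CPM in the control (-0.060 ± 0.050, adjusted p = 0.384). Ccne2 had 5.47 and 6.16 CPM in the full window, 5.13 and 5.24 CPM in the mid window, 5.95 and 5.04 CPM in the early window and 5.11 and 5.48 CPM in the control (0.14 ± 0.097, adjusted p = 0.285). Both full window libraries lay below both control libraries for the first 4 genes and not for Ccne2. That order was seen for 32 of the 42 genes and for 33.1% of all genes.

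The effect of the inhibitor over its whole presence was set against its effect at day 2 in 1 test of the difference. None of the 42 genes passed it by edgeR, none had an unadjusted p under 0.05, and none passed by DESeq2, while 9.18% of all genes did. Of the 14 genes lower at day 2 and the 12 lower in the full window, 7 were in both sets, 50% of the first and 58.3% of the second. They were Mcm6, Mcm7, Pcna, Pold1, Pole, Rrm1 and Tk1. How far these calls overlap over all genes was not computed. Of the 27 G1 to S control genes, 10 were lower and 2 higher in the full window than in the control. Cdkn1c was lower (-0.64 ± 0.042, adjusted p = 4.91e-16), and Cdkn2b, another kinase inhibitor gene, was higher (0.35 ± 0.047, adjusted p = 9.08e-08). At day 2, 10 of the 27 were lower and 3 higher with inhibitor, and Cdkn1c was among the higher ones (0.54 ± 0.091, adjusted p = 2.59e-05). The test of the difference between the 2 effects gave -1.18 ± 0.10 for Cdkn1c (adjusted p = 1.35e-11). Of the 28 G2 and mitosis genes, 7 were lower and none higher. The summed epithelial markers were 70.9 to 73.3 CPM in the full window, 44.7 to 46.5 CPM in the mid window, 25.4 to 26.2 CPM in the early window and 16.9 to 17.6 CPM in the control. Their part in the result was not tested.

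**Figure D3:**
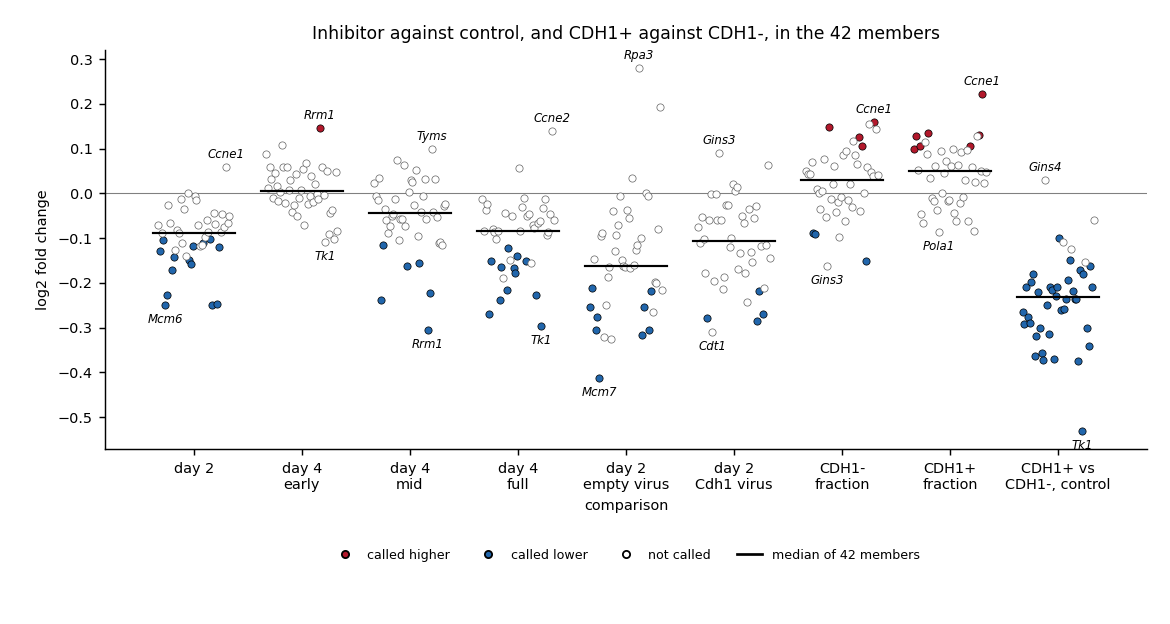
Each point is the log2 fold change of 1 of the 42 genes in the comparison named below it, 8 of inhibitor over DMSO control and, at the right, CDH1-positive over CDH1-negative control cells; filled points passed the test and the bar is the median of the 42. Medians lie below 0 at day 2 and in the full and mid windows, near 0 in the early window, and slightly above 0 in both sorted fractions.

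In the sort, CDH1-positive control cells had lower levels of nearly all replication genes than CDH1-negative control cells. Of the 42, 37 were lower and none higher, where 13.8% of all genes were lower and 12.8% higher. The median was -0.23, against 0.0011 over all genes, and the changes were modest, the called ones lying between -0.53 and -0.10. Tk1 had 59.8 and 61.8 CPM in CDH1-positive cells, against 87.1 and 88.6 CPM in CDH1-negative cells (-0.53 ± 0.039, adjusted p = 7.53e-23). Rrm2 had 247 and 244 CPM in CDH1-positive cells, against 317 and 320.3 CPM in CDH1-negative cells (-0.37 ± 0.027, adjusted p = 6.45e-23). The fractions did not overlap for either gene of nucleotide supply. Lower values in both CDH1-positive libraries were seen for 40 of the 42 and for 30.3% of all genes. Gins3 had 8.42 and 7.58 CPM in CDH1-positive cells, against 10.6 and 10.1 CPM in CDH1-negative cells (-0.37 ± 0.098, adjusted p = 0.00201). Pold1 had 38.8 and 41.7 CPM, against 50.3 and 53.8 CPM (-0.37 ± 0.047, adjusted p = 3.03e-10), and Cdc6 had 21.6 and 22.0 CPM, against 29.0 and 27.1 CPM (-0.36 ± 0.059, adjusted p = 4.17e-07). For these 3 genes too every CDH1-positive library lay below every CDH1-negative one.

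Genes of the other roles differed in the same direction. Mcm2 had 123 and 126 CPM in CDH1-positive cells, against 149 and 150.2 CPM in CDH1-negative cells (-0.27 ± 0.032, adjusted p = 1.54e-11). Cdt1 had 32.0 and 33.6 CPM, against 40.6 and 41.2 CPM (-0.32 ± 0.051, adjusted p = 2.01e-07). Pcna had 181 and 182 CPM, against 209.9 and 210.0 CPM (-0.21 ± 0.030, adjusted p = 6.15e-09). The fractions did not overlap for any of these helicase, loader and clamp genes. Tyms had 64.5 and 64.2 CPM in CDH1-positive cells, against 70.9 and 74.1 CPM in CDH1-negative cells (-0.17 ± 0.039, adjusted p = 0.000307), and Ccne1 had 64.4 and 65.6 CPM, against 74.8 and 70.8 CPM (-0.16 ± 0.039, adjusted p = 0.000589). E2f1, with 39.1 and 39.4 CPM against 41.0 and 40.8 CPM, did not pass (-0.060 ± 0.050, adjusted p = 0.414), nor did Gins4, Rfc3, Rpa3 and Ung. Of the 28 G2 and mitosis genes, 26 were lower in CDH1-positive cells and none higher, with -0.24 ± 0.026 for the proliferation marker Mki67 (adjusted p = 6.56e-13). Only 3 of the 15 checkpoint genes were lower, and none was higher. For the 27 G1 to S control genes the counts were 10 lower and 2 higher. The macrophage markers summed to 59.1 to 60.4 CPM in CDH1-positive cells and 9.81 to 10.01 CPM in CDH1-negative cells, and all 5 exceeded 1 CPM in the positive cells. The pluripotency markers summed to 14.5 to 16.3 and 4.41 to 5.32 CPM. Their part in the difference was not tested.

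With the inhibitor, the CDH1-positive fraction was again lower for most of the 42. Of the 42, 37 were lower in CDH1-positive inhibitor cells than in CDH1-negative inhibitor cells and none higher, where 26.8% of all genes were called and 13.3% were lower and 1890 of 13968 were higher, with a median of -0.22 against 0.0050. Tk1 had 55.3 and 59.2 CPM in CDH1-positive inhibitor cells, against 79.4 and 78.7 CPM in CDH1-negative inhibitor cells (-0.46 ± 0.039, adjusted p = 2.71e-19). Gins1 had 7.01 and 7.58 CPM, against 9.56 and 9.55 CPM (-0.39 ± 0.098, adjusted p = 0.00117). Rrm2 had 269 and 259.7 CPM, against 337 and 348 CPM (-0.37 ± 0.027, adjusted p = 3.27e-23). Each of these genes was lower in every CDH1-positive library. Ccne2 had 20.8 and 23.6 CPM in CDH1-positive inhibitor cells, against 28.4 and 27.6 CPM in CDH1-negative inhibitor cells (-0.33 ± 0.058, adjusted p = 2.45e-06), and Chaf1b had 24.4 and 24.0 CPM, against 29.4 and 31.6 CPM (-0.33 ± 0.056, adjusted p = 7.54e-07). Cyclin E2 and the histone chaperone subunit thus followed the nucleotide genes. Mcm2 had 132 and 134 CPM, against 155 and 154 CPM (-0.22 ± 0.031, adjusted p = 1.22e-08), Cdc6 had 22.4 and 23.9 CPM, against 27.8 and 28.3 CPM (-0.27 ± 0.057, adjusted p = 6.65e-05), and Cdt1 had 36.9 and 35.1 CPM, against 40.7 and 39.1 CPM (-0.15 ± 0.049, adjusted p = 0.0149). Pcna had 173 and 185 CPM, against 211 and 207 CPM (-0.22 ± 0.029, adjusted p = 1.47e-09), and Tyms had 66.3 and 67.7 CPM, against 70.9 and 74.3 CPM (-0.11 ± 0.038, adjusted p = 0.0170). The fractions did not overlap for these licensing, clamp and thymidylate genes, and both CDH1-positive libraries were the lower ones for 40 of the 42 and for 29.8% of all genes. Ccne1 had 74.5 and 77.0 CPM, against 82.1 and 80.2 CPM (-0.099 ± 0.037, adjusted p = 0.0346), whereas E2f1, with 38.1 and 43.0 CPM against 42.6 and 41.5 CPM, did not pass (-0.051 ± 0.048, adjusted p = 0.476).

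Within the fractions the inhibitor changed 7 of the 42 genes in each. In CDH1-positive cells 7 were higher and none lower, where 8.33% of all genes were higher and 10.5% lower. In CDH1-negative cells 4 were higher and 3 lower, where 7.82% were higher and 10.8% lower. The 7 called genes in each fraction are a share close to the 18.8% and 18.7% of all genes called there, and DESeq2 called 4 in each fraction. The medians were 0.049 and 0.030, against 0.0011 and -0.0012 over all genes. The CDH1-negative median was 0.058 on log2(TPM + 1), and 0.014 without inhibitor replicate 2. Ccne1 had 74.5 and 77.0 CPM with inhibitor in CDH1-positive cells, against 64.4 and 65.6 CPM with DMSO (0.22 ± 0.038, adjusted p = 1.72e-06). In CDH1-negative cells Ccne1 had 82.1 and 80.2 CPM with inhibitor, against 74.8 and 70.8 CPM with DMSO (0.16 ± 0.038, adjusted p = 0.000782). Cyclin E1 RNA was therefore higher with inhibitor in both fractions. Rrm2 was also higher in both, with 269 and 259.7 CPM with inhibitor against 247 and 244 CPM with DMSO in CDH1-positive cells (0.11 ± 0.027, adjusted p = 0.00188). Its values in CDH1-negative cells were 337 and 348 CPM with inhibitor and 317 and 320.3 CPM with DMSO (0.11 ± 0.027, adjusted p = 0.00177).

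The other genes called in 1 fraction were as follows. In CDH1-positive cells Cdt1 had 36.9 and 35.1 CPM with inhibitor, against 32.0 and 33.6 CPM (0.13 ± 0.050, adjusted p = 0.0487). Chaf1a had 71.2 and 68.1 CPM with inhibitor, against 64.5 and 62.5 CPM (0.13 ± 0.039, adjusted p = 0.00830). Mcm3 had 123 and 129 CPM with inhibitor, against 115 and 116 CPM (0.13 ± 0.033, adjusted p = 0.00185). Mcm5, with 160.0 and 163 CPM against 152 and 149 CPM (0.11 ± 0.030, adjusted p = 0.00613), and Mcm2, at 0.10, were higher there too, so 3 of the 6 helicase subunits were called. In CDH1-negative cells Gins4 had 34.3 and 33.2 CPM with inhibitor, against 30.9 and 30.0 CPM (0.15 ± 0.054, adjusted p = 0.0426), and Lig1 had 93.8 and 92.0 CPM, against 85.5 and 84.8 CPM (0.13 ± 0.036, adjusted p = 0.00604). The 3 lower there were Tk1, with 79.4 and 78.7 CPM against 87.1 and 88.6 CPM (-0.15 ± 0.037, adjusted p = 0.00126), Mcm7, with 193 and 189 CPM against 203 and 204 CPM (-0.091 ± 0.029, adjusted p = 0.0162), and Mcm6, with 178 and 179 CPM against 195 and 184 CPM (-0.089 ± 0.030, adjusted p = 0.0277). Mcm6, Mcm7 and Tk1 were lower with inhibitor at day 2 and in the full window as well. In CDH1-negative cells Mcm2 (0.049) and Cdt1 (-0.036) did not pass. In CDH1-positive cells Pcna (-0.016), Tyms (0.059), Cdc6 (0.088) and E2f1 (0.049) did not pass, nor did they in CDH1-negative cells, at -0.0084, 0.00082, -0.00027 and 0.040. The difference between the inhibitor's effects in the 2 fractions was tested directly. None of the 42 genes passed by edgeR, none by DESeq2, and 3 had an unadjusted p under 0.05, while 0.186% of all genes passed.

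In the virus experiment, 2 days of reprogramming raised the replication genes in cells with either virus. With empty virus 40 of the 42 were higher at day 2 than in MEFs and none lower, where 33.4% of all genes were higher and 32.7% lower. With the Cdh1 virus 40 were higher and none lower, where 33.4% were higher and 32.6% lower. The medians were 1.13 and 0.98, against 0.0020 and 0.00068 over all genes. Rfc1 and E2f1 were the 2 not called with either virus. Mcm10 had 24.2 and 24.8 CPM at day 2 with empty virus, against 3.48 and 3.49 CPM in MEFs with empty virus (2.81 ± 0.11, adjusted p = 1.95e-16). In cells with the Cdh1 virus it had 22.2 and 21.6 CPM at day 2, against 4.03 and 3.60 CPM in MEFs (2.51 ± 0.11, adjusted p = 5.99e-16). Day 2 libraries were many times the MEF level in both. Tk1 had 71.0 and 66.9 CPM at day 2 with empty virus, against 10.5 and 9.71 CPM in MEFs (2.77 ± 0.085, adjusted p = 1.28e-18). Tk1 values with the Cdh1 virus were 58.3 and 61.3 CPM at day 2, against 10.9 and 12.2 CPM in MEFs (2.37 ± 0.081, adjusted p = 8.70e-18). Rrm2 followed, with 210.2 and 207 CPM at day 2 against 48.6 and 49.6 CPM in MEFs with empty virus (2.09 ± 0.064, adjusted p = 1.33e-18), and 209.8 and 211 CPM against 53.7 and 48.4 CPM with the Cdh1 virus (2.04 ± 0.063, adjusted p = 1.29e-18).

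Licensing and clamp genes rose in the same way. Mcm5 had 85.2 and 84.4 CPM at day 2 with empty virus, against 20.5 and 17.6 CPM in MEFs (2.15 ± 0.078, adjusted p = 2.94e-17). Cdc6 had 16.7 and 15.8 CPM at day 2 with empty virus, against 3.80 and 3.66 CPM in MEFs (2.12 ± 0.10, adjusted p = 8.54e-15). Cdc6 with the Cdh1 virus stood at 13.4 and 12.9 CPM at day 2, against 3.77 and 3.69 CPM in MEFs (1.82 ± 0.10, adjusted p = 9.13e-14). The change of Cdc6 in the timecourse was 0.77. The experiments were not tested against each other, and their MEFs started at different levels. Ccne2 had 23.9 and 24.2 CPM at day 2 with the Cdh1 virus, against 6.05 and 7.19 CPM in MEFs (1.87 ± 0.11, adjusted p = 5.04e-13). The cyclin gene thus rose as well. Mcm2 had 84.7 and 75.6 CPM at day 2 against 34.0 and 34.8 CPM in MEFs with empty virus (1.22 ± 0.079, adjusted p = 1.96e-12), and 71.7 and 73.3 CPM against 35.8 and 36.6 CPM with the Cdh1 virus (1.00 ± 0.077, adjusted p = 4.65e-11). Cdt1 had 14.2 and 16.3 CPM at day 2 against 7.96 and 7.64 CPM in MEFs with empty virus (0.97 ± 0.13, adjusted p = 2.12e-06), and 13.6 and 15.0 CPM against 7.47 and 10.3 CPM with the Cdh1 virus (0.71 ± 0.13, adjusted p = 5.30e-05). Day 2 and MEF libraries did not overlap for either gene. Both day 2 libraries were above both MEF libraries for 42 of the 42 genes with empty virus and 41 with the Cdh1 virus, and for 41.4% and 41.8% of all genes.

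The clamp, thymidylate and cyclin E1 genes followed. Pcna had 154 and 163 CPM at day 2 against 75.2 and 75.2 CPM in MEFs with empty virus (1.08 ± 0.061, adjusted p = 1.30e-13), and 145 and 148 CPM against 78.0 and 76.1 CPM with the Cdh1 virus (0.93 ± 0.060, adjusted p = 1.69e-12). Tyms had 77.5 and 63.9 CPM at day 2 against 46.9 and 46.3 CPM in MEFs with empty virus (0.60 ± 0.080, adjusted p = 6.39e-07), and 68.9 and 66.1 CPM against 50.1 and 52.3 CPM with the Cdh1 virus (0.40 ± 0.079, adjusted p = 0.000102). Ccne1 had 81.2 and 89.6 CPM at day 2 against 39.0 and 37.7 CPM in MEFs with empty virus (1.16 ± 0.088, adjusted p = 2.37e-10), and 74.1 and 76.9 CPM against 35.9 and 42.02 CPM with the Cdh1 virus (0.96 ± 0.086, adjusted p = 3.50e-09). Each of them was higher in every day 2 library. E2f1 had 36.0 and 39.0 CPM at day 2 with empty virus, against 33.0 and 33.1 CPM in MEFs, and did not pass (0.18 ± 0.085, adjusted p = 0.0614). In the other virus group E2f1 had 37.9 and 33.1 CPM at day 2, against 33.9 and 34.0 CPM in MEFs (0.064 ± 0.083, adjusted p = 0.517). All 28 G2 and mitosis genes were higher at day 2 with either virus, with medians of 2.11 and 1.95. For the 27 G1 to S control genes, 19 were higher and 3 lower with empty virus, and 18 and 4 with the Cdh1 virus. The macrophage markers summed to 203 to 217 CPM at day 2 and 1210 to 1321 CPM in MEFs with empty virus, and to 76.1 to 78.6 CPM and 712 to 829 CPM with the Cdh1 virus. Their part in the rise was not tested.

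The Cdh1 virus against the empty virus gave no called gene among the 42 by edgeR or DESeq2, and 1 under other settings. In MEFs none of the 42 passed for Cdh1 over empty virus by edgeR or DESeq2, and 5 had an unadjusted p under 0.05, while 1.14% of all genes passed. At day 2 none passed by edgeR or DESeq2, and 15 had an unadjusted p under 0.05, while 0.897% of all genes passed. Mcm5 was called lower at day 2 without the low-count filter (-0.26, adjusted p = 0.0373) and with the replicate number as a block (-0.26, adjusted p = 0.0420), whereas edgeR as used elsewhere gave -0.26 ± 0.068, adjusted p = 0.0769. The day 2 median was -0.12 against 0 over all genes. Mcm2 had 71.7 and 73.3 CPM with the Cdh1 virus, against 84.7 and 75.6 CPM with empty virus (-0.14 ± 0.073, adjusted p = 0.556), and Rrm2 had 209.8 and 211 CPM, against 210.2 and 207 CPM (0.015 ± 0.059, adjusted p = 0.982). Of the 42 estimates 38 were negative at day 2. The pluripotency markers summed to 0.846 to 1.24 CPM in day 2 cells with the Cdh1 virus and 5.11 to 7.16 CPM in those with empty virus, and the macrophage markers to 76.1 to 78.6 CPM and 203 to 217 CPM; their part was not tested. The virus did raise its own gene, with Cdh1 at 119 to 123 CPM in day 2 cells with the Cdh1 virus and 4.98 to 5.43 CPM in those with empty virus.

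At day 2 of this experiment some replication genes were lower with inhibitor than with DMSO. The counts depended on the scale and on single libraries, as given below. With empty virus 9 of the 42 were lower than with DMSO and none higher, where 3.52% of all genes were lower and 3.22% higher. With the Cdh1 virus 4 were lower and none higher, where 2.23% were lower and 2.82% higher. The medians were -0.16 and -0.11, against -0.0017 and 0 over all genes, and the median with empty virus was -0.099 on log2(TPM + 1). Mcm7 had 89.1 and 93.6 CPM with inhibitor and empty virus, against 122 and 122 CPM with DMSO (-0.41 ± 0.066, adjusted p = 0.000362). In cells with the Cdh1 virus Mcm7 had 95.2 and 88.8 CPM with inhibitor, against 109.5 and 114 CPM with DMSO (-0.28 ± 0.065, adjusted p = 0.0138). The inhibitor libraries were lower for both viruses. Tk1 had 55.8 and 55.8 CPM with inhibitor and empty virus, against 71.0 and 66.9 CPM with DMSO (-0.30 ± 0.071, adjusted p = 0.0102), and 51.2 and 46.9 CPM against 58.3 and 61.3 CPM with the Cdh1 virus (-0.29 ± 0.070, adjusted p = 0.0195). Lig1 had 36.6 and 40.3 CPM with inhibitor and empty virus, against 49.4 and 46.6 CPM with DMSO (-0.32 ± 0.071, adjusted p = 0.00795). Mcm5 had 68.3 and 69.0 CPM against 85.2 and 84.4 CPM (-0.30 ± 0.070, adjusted p = 0.00918), and Mcm6 had 98.2 and 90.1 CPM against 112 and 116 CPM (-0.28 ± 0.064, adjusted p = 0.0102).

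With the Cdh1 virus the remaining calls were Chaf1a and Dut. Chaf1a had 38.4 and 38.5 CPM with inhibitor, against 47.5 and 45.2 CPM with DMSO (-0.27 ± 0.069, adjusted p = 0.0252). Dut had 46.2 and 44.6 CPM with inhibitor, against 52.8 and 52.8 CPM with DMSO (-0.22 ± 0.062, adjusted p = 0.0410). Mcm2 had 61.1 and 72.8 CPM with inhibitor and empty virus, against 84.7 and 75.6 CPM with DMSO, and was lower (-0.25 ± 0.075, adjusted p = 0.0411). With the Cdh1 virus it had 72.7 and 64.9 CPM with inhibitor, against 71.7 and 73.3 CPM with DMSO (-0.076 ± 0.073, adjusted p = 0.609).

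The loaders and the genes of S phase entry did not pass with either virus. Cdc6 had 15.8 and 14.8 CPM with inhibitor and empty virus (-0.089) and 12.9 and 13.4 CPM with inhibitor and the Cdh1 virus (-0.0018). Cdt1 had 11.8 and 12.6 CPM with empty virus (-0.32 ± 0.12, adjusted p = 0.131) and 11.9 and 11.1 CPM with the Cdh1 virus (-0.31 ± 0.12, adjusted p = 0.139). The estimates for Cdt1 were as large as those of called genes, but their SEs were larger. Ccne1 had 82.4 and 79.4 CPM with empty virus (-0.080) and 76.7 and 62.5 CPM with the Cdh1 virus (-0.12). E2f1 had 31.3 and 33.2 CPM with empty virus (-0.22) and 34.6 and 29.4 CPM with the Cdh1 virus (-0.15). Nor did 3 genes of the clamp and nucleotide supply. Pcna had 149 and 134 CPM with empty virus (-0.17) and 149 and 149 CPM with the Cdh1 virus (0.021). Rrm2 had 203 and 214 CPM with empty virus (0.0014) and 197 and 209 CPM with the Cdh1 virus (-0.055). Tyms had 72.2 and 68.7 CPM with empty virus (-0.0049) and 61.9 and 70.5 CPM with the Cdh1 virus (-0.029). The DMSO libraries of these genes are given above.

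Of the 14 genes lower with inhibitor at day 2 of the timecourse, 8 were also among the 9 called with empty virus, 57.1% of the first and 88.9% of the second. They were Dut, Lig1, Mcm3, Mcm5, Mcm6, Mcm7, Rrm1 and Tk1. This overlap was not computed over all genes either. The counts were 3 and 0 with limma on log2(TPM + 1), and without 1 library they ranged over 2 to 6 with empty virus and 0 to 5 with the Cdh1 virus. The difference between the 2 effects passed for none of the 42 by edgeR or DESeq2, 4 had an unadjusted p under 0.05, and 0% of all genes passed by edgeR.

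ESCs had the highest levels of almost every replication gene. All 42 were higher in ESCs than in MEFs with empty virus, where 44.5% of all genes were higher and 44.1% lower, and the median was 2.98 against 0.0031. Over day 2 cells with empty virus 40 were higher and 1 lower, where 43.4% were higher and 42.2% lower, with a median of 1.96 against 0.024. The 2 comparisons share the ESC libraries, and ESCs differ from MEFs in genotype and culture as well as in cell type. The ESC libraries are titled apart from the virus experiment and their titles name no virus, whereas the MEFs and day 2 cells carried an empty lentivirus. These differences cannot be told apart. Mcm10 had 161 and 152 CPM in ESCs, against 3.48 and 3.49 CPM in MEFs, a log2 fold change of 5.49 ± 0.10 (adjusted p = 7.17e-24). Ung had 78.3 and 82.3 CPM in ESCs, against 2.47 and 2.03 CPM in MEFs (5.16 ± 0.12, adjusted p = 2.54e-22). Mcm5 had 699.8 and 629 CPM in ESCs, against 20.5 and 17.6 CPM in MEFs (5.12 ± 0.081, adjusted p = 2.94e-25). The 3 fold changes were 44.8, 35.7 and 34.9, in a helicase activator, a repair enzyme and a helicase subunit.

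Cdt1 had 196 and 165 CPM in ESCs, against 7.96 and 7.64 CPM in MEFs (4.53 ± 0.12, adjusted p = 9.26e-19), and Cdc6 had 76.6 and 77.9 CPM, against 3.80 and 3.66 CPM (4.37 ± 0.093, adjusted p = 6.43e-23). Mcm2 had 498 and 497 CPM in ESCs, against 34.0 and 34.8 CPM in MEFs (3.85 ± 0.080, adjusted p = 7.22e-23). ESC libraries lay far above MEF libraries for each of these licensing genes. Pcna had 569.8 and 573 CPM in ESCs, against 75.2 and 75.2 CPM in MEFs (2.93 ± 0.063, adjusted p = 7.98e-23). Rrm2 had 381 and 364 CPM in ESCs, against 48.6 and 49.6 CPM in MEFs (2.92 ± 0.065, adjusted p = 1.54e-22). Tyms had 161 and 169 CPM, against 46.9 and 46.3 CPM (1.83 ± 0.079, adjusted p = 2.28e-16). Ccne1, the cyclin, had 308 and 296 CPM in ESCs, against 39.0 and 37.7 CPM in MEFs (2.98 ± 0.088, adjusted p = 3.53e-18). E2f1 had the smallest difference of the 42, with 44.5 and 42.7 CPM in ESCs, against 33.0 and 33.1 CPM in MEFs (0.40 ± 0.083, adjusted p = 0.000107). On the log2(TPM + 1) scale E2f1 had no such difference, at -0.018 (adjusted p = 0.837), a scale on which the median of all genes shifted by -0.29. The fibroblast markers summed to 158 to 182 CPM in ESCs and 25958 to 27141 CPM in MEFs, and the macrophage markers to 19.3 to 21.5 CPM and 1210 to 1321 CPM; their part in these differences was not tested.

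Against day 2 cells, Ung had 78.3 and 82.3 CPM in ESCs, against 6.60 and 6.23 CPM at day 2 (3.65 ± 0.098, adjusted p = 9.61e-21), and Cdt1 had 196 and 165 CPM, against 14.2 and 16.3 CPM (3.56 ± 0.11, adjusted p = 1.42e-17). Mcm5 had 699.8 and 629 CPM in ESCs, against 85.2 and 84.4 CPM at day 2 (2.97 ± 0.070, adjusted p = 7.19e-22). The day 2 rise of these genes therefore covered only part of the distance to the ESC level. Rfc5 had 212 and 199 CPM in ESCs, against 26.4 and 26.8 CPM at day 2 (2.95 ± 0.086, adjusted p = 5.24e-20). Gins1 had 41.5 and 38.7 CPM in ESCs, against 5.16 and 6.19 CPM at day 2 (2.82 ± 0.13, adjusted p = 2.50e-16). Of the 5 genes of nucleotide supply, 3 were higher in ESCs, with Dut at 2.26, and Tk1 and Rrm1 were not. Tk1 had 72.5 and 68.2 CPM in ESCs, against 71.0 and 66.9 CPM at day 2, and did not pass (0.028 ± 0.069, adjusted p = 0.705), with overlapping libraries. Rrm1 had 337 and 329 CPM in ESCs, against 467 and 480.5 CPM at day 2, the 1 gene of the 42 that was lower in ESCs (-0.51 ± 0.056, adjusted p = 9.20e-09). Rrm2 was higher by 0.84, Tyms by 1.22, Cdc6 by 2.25, Mcm2 by 2.64, Pcna by 1.85 and Ccne1 by 1.82. E2f1 was higher by 0.22, a call lost on the log2(TPM + 1) scale (adjusted p = 0.881) and without ESC replicate 1 or day 2 replicate 1. All 28 G2 and mitosis genes and all 15 checkpoint genes were higher in ESCs than in either MEFs or day 2 cells. Of the 42 further replication genes, 39 were higher and 2 lower than in MEFs, and 35 and 5 against day 2 cells. The 27 G1 to S control genes were divided, with 15 higher and 10 lower than in MEFs, and 15 and 11 against day 2 cells.

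**Figure D4:**
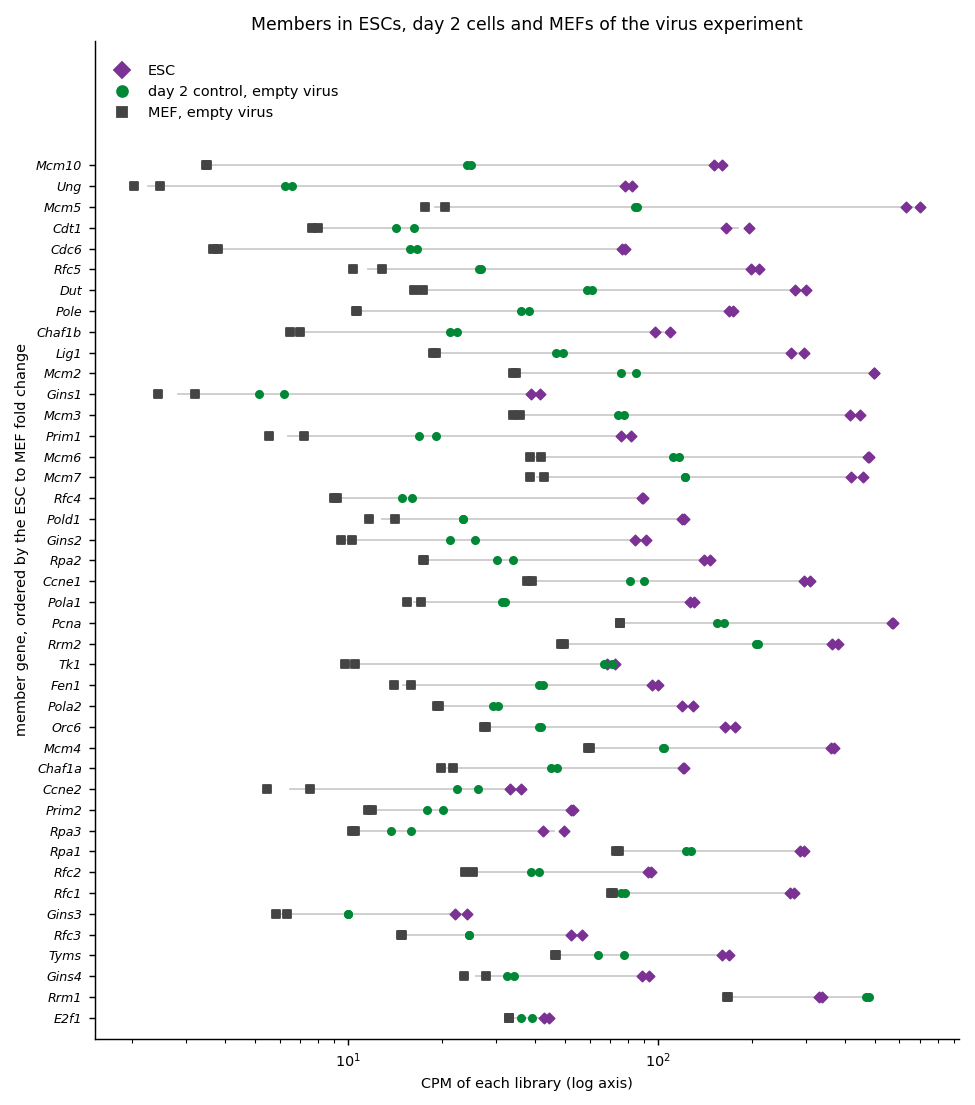
Points are CPM of single libraries on a log axis for the 42 genes (down the page, ordered by the fold change of ESCs over MEFs) in ESCs, day 2 control cells with empty virus and MEFs with empty virus. The day 2 points lie between the others for nearly all genes; Rrm1 is higher at day 2 than in ESCs, the Tk1 points of ESCs and day 2 overlap, and E2f1 differs least.

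**Figure D5:**
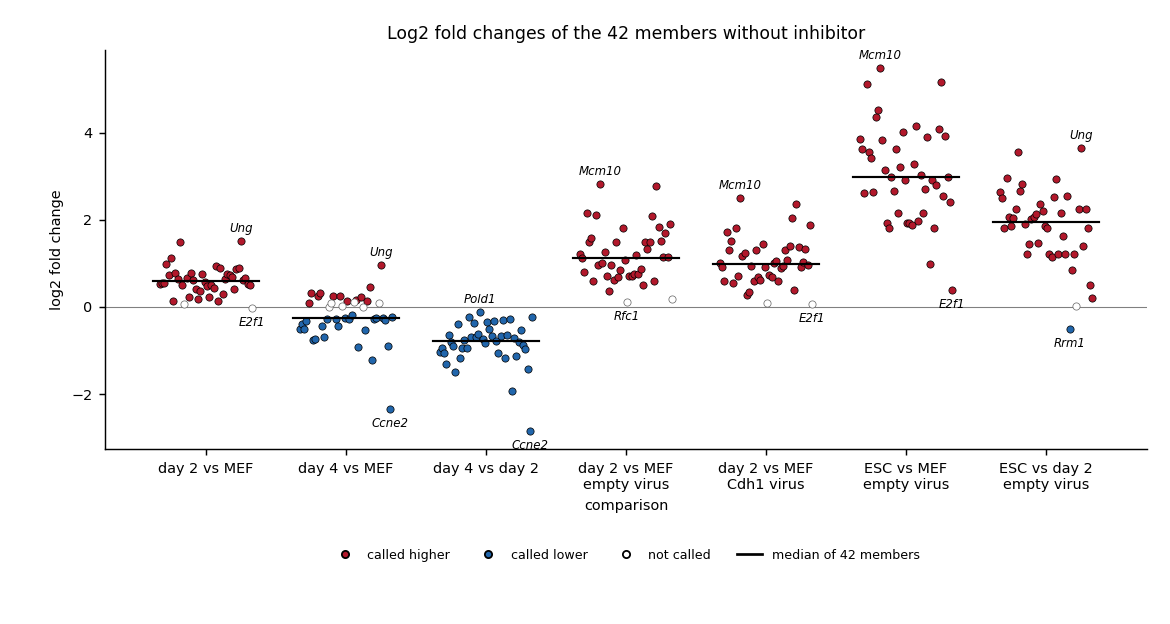
Each point is the log2 fold change of 1 of the 42 genes in the comparison named below it, none with inhibitor; filled points passed the test and the bar is the median of the 42. All points lie below 0 for day 4 against day 2 and all lie above 0 for ESCs against MEFs.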

How the data were processed

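PolyA RNA (1 ug) was made into libraries with a TruSeq V2 kit, per the labels' protocols. A human 293T RNA spike-in of 20 ng was added in the timecourse and the sort, which were sequenced as read pairs. Tools and builds named per the submitters' processing notes are Trimmomatic, Bowtie, version 1.2.4 of RSEM, hg18 and mm9. The deposited expected counts are RSEM estimates per gene, unscaled, and the deposited TPM values are scaled by gene length and library by the authors. In no group did the 2 libraries hold identical values, and libraries of different groups were not compared in this way.

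Expected counts were rounded to whole numbers. The timecourse, sort and virus with ESC experiments were fitted separately in R 4.3.3 with edgeR 4.0.16 (TMM scaling, filterByExpr with a minimum count of 10 and total of 15, robust quasi-likelihood test). The fits held 14, 8 and 14 libraries and 14473, 13968 and 15044 genes. P-values were adjusted by the Benjamini-Hochberg method over all tested genes with a threshold of 0.05. CPM are TMM-scaled. Errors after fold changes are SEs on the log2 scale. The test was run on simulated counts first. The lowest expected count of any of the genes was 45, and counting error weighs more on the genes with few counts.

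Values by library are given for up to 5 called genes of largest change per direction and comparison, for genes called against the majority, and for Mcm2, Cdc6, Cdt1, Pcna, Rrm2, Tyms, Ccne1 and E2f1. The other lists give up to 4 genes of smallest p. The genes shown by library and the other lists were chosen with earlier results of these data known. The 42 themselves came from the fixed list named at the start. Alternatives were DESeq2 1.42.0, RLE scaling, no low-count filter, limma 3.58.1 on log2(TPM + 1) and log2(TPM + 0.1), a replicate block, and leaving out each library. Replicate numbers did not pair the samples. One checkpoint gene, Rad9a, was not analysed here.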

Additional observations from a re-analysis of the deposited data

Results flagged for a closer look

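Some genes were called in opposite directions for the inhibitor in different settings, with both libraries on the same side each time. These differences were not tested against each other where they lie in different experiments, and the 3 tests of a difference between effects called none of the 42 genes. The share of all genes called in opposite directions was not computed. In the single comparisons, 23.4 to 34.3% of all genes had both inhibitor libraries on a given side of both DMSO libraries. Several calls are not secure: that of Rrm1 in the early window ended on the TPM scale, and DESeq2 called fewer genes in each sorted fraction. Log2 fold changes of inhibitor over DMSO are given. Of the helicase subunits, Mcm2 was at 0.10 in CDH1-positive cells and -0.25 at day 2 with empty virus. Mcm3 was at -0.13 at day 2 of the timecourse, 0.13 in CDH1-positive cells and -0.21 at day 2 with empty virus. Mcm5 was at -0.10, 0.11 and -0.30 in the same 3 settings. Cdt1, which loads the helicase, was at -0.17 at day 2 of the timecourse and 0.13 in CDH1-positive cells. Lig1, the ligase, was at -0.10 at day 2 of the timecourse, 0.13 in CDH1-negative cells and -0.32 at day 2 with empty virus. Rrm1 was at -0.25 at day 2 of the timecourse, -0.23 in the full window, -0.31 in the mid window, 0.15 in the early window and -0.25 at day 2 with empty virus. Its partner Rrm2 was at -0.22 in the mid window and at 0.11 in both CDH1-positive and CDH1-negative cells. Chaf1a, of the histone chaperone, was at 0.13 in CDH1-positive cells and -0.27 at day 2 with the Cdh1 virus.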

How the results depend on the processing

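Of 252 counts of called genes recomputed, 215 stayed within 1.5 times the reported count. Of 2806 single-gene values, 2647 kept the side of the threshold, 145 lost the call and 12 gained one. Sign was compared only for values called in the reported or the other setting, and 2 such values changed sign. Those 2 were E2f1 in ESCs over MEFs, at -0.018 and -0.019 on log2(TPM + 1) and log2(TPM + 0.1). On both TPM scales the counts were 5 for the inhibitor at day 2 (14 reported), 0 for the early window (1), 11 for the mid window (6), 8 for full against early (15) and 0 for the inhibitor with the Cdh1 virus (4). With empty virus the inhibitor gave 3 and 2 on these scales (9), and full against mid gave 3 on log2(TPM + 0.1) (5). DESeq2 called 4 in CDH1-negative and 4 in CDH1-positive cells with inhibitor (7 each). Cdh1 over empty virus at day 2 called 1 gene, Mcm5, without the filter and 1 with the replicate block (0). The cause of these changes was not tested. The replicate block moved no other count by over 1.5 times, and same-numbered libraries correlated between -0.19 and 0.16 in their deviations. Over all genes, DESeq2 called 2243 against 3717 for CDH1-positive over CDH1-negative control cells, 2154 against 3749 for the same with inhibitor, 1460 against 2631 and 1403 against 2607 for the inhibitor in CDH1-positive and CDH1-negative cells, and 11 against 26 for the difference of these effects. On log2(TPM + 1) 495 were called against 815 in the early window, 249 against 759 for the inhibitor with the Cdh1 virus, 79 against 135 for Cdh1 over empty virus at day 2 and 8 against 26 for the difference between the sorted fractions. On log2(TPM + 0.1) 879 were called against 1329 for the full window effect against the day 2 effect and 81 against 171 for Cdh1 over empty virus in MEFs. For the difference between the virus groups, DESeq2 called 17 genes and the fit without a filter 5 (0). On log2(TPM + 1) the median of the 42 genes was -0.15 for day 4 over MEFs (-0.25 reported) and -0.049 for the inhibitor at day 2 (-0.088). TPM scales moved the median of all genes by -0.29 and -0.39 in ESCs over MEFs.

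Leaving out 1 library gave 38 to 41 called genes for day 2 over MEFs, 33 to 36 for day 4 over MEFs, 40 to 42 for day 4 over day 2, 6 to 9 for the inhibitor at day 2, 7 to 12 for the full window, 5 to 8 for the mid and 0 to 1 for the early window, 10 to 14 for full against early and 3 to 7 for full against mid. It gave 30 to 35 for CDH1-positive over CDH1-negative control cells, 31 to 34 with inhibitor, and 3 to 5 for the inhibitor in CDH1-positive and likewise in CDH1-negative cells. It gave 40 to 40 and 39 to 40 for day 2 over MEFs with empty and Cdh1 virus, 2 to 6 and 0 to 5 for the inhibitor there, 42 to 42 for ESCs over MEFs, 40 to 41 for ESCs over day 2, and 0 to 0 for both Cdh1 over empty virus comparisons and the 3 differences between effects. Counts moved by over 1.5 times without any library of the day 2 inhibitor comparison (9 and 7 without DMSO replicates 1 and 2, 8 and 6 without inhibitor replicates 1 and 2), DMSO replicate 1 for the full window (7), DMSO replicate 2 or early replicate 2 (0), mid replicate 1 or full replicate 2 for full against mid (3), replicate 2 of either CDH1-negative group (3), DMSO replicate 2 or inhibitor replicates 1 and 2 of CDH1-positive cells (3, 4 and 3), DMSO replicates 1 and 2 or inhibitor replicate 1 with empty virus (3, 4 and 2), and DMSO replicates 1 and 2 or inhibitor replicate 2 with the Cdh1 virus (0). With 1 library left in a group, that library is assumed to vary like the other groups. With 2 libraries a group, small inhibitor effects are the least secure. Leaving out 1 library moved the count over all genes by over 1.5 times in these comparisons: 1510 to 1583 against 2583 for the inhibitor at day 2, 380 to 450 against 815 in the early window, 1749 to 2141 against 2910 for full against mid, 880 to 1135 against 1329 for the full window effect against the day 2 effect, 1674 to 1883 against 2631 for the inhibitor in CDH1-positive cells, 87 to 133 against 171 and 63 to 74 against 135 for Cdh1 over empty virus in MEFs and at day 2, and 270 to 896 against 1013 and 124 to 1253 against 759 for the inhibitor with empty and Cdh1 virus.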
